A study of Arabidopsis thaliana with 11 samples.

Results

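The balance of maternal and paternal transcripts was measured gene by gene in Arabidopsis thaliana endosperm whose father carried the nrpd1a-4 mutation and so lacked RNA polymerase IV, while the mother's copies of the gene were intact. Genes were taken from 3 libraries of a Ler mother crossed with an nrpd1a-4 (Col) father, out of 11 libraries in the series. A gene entered when each of the 3 libraries held at least 20 reads that could be assigned to the Ler or the Col allele. This left 5588 of 37336 features, which held 95.9% of all allele counts of these libraries. The question was which genes stay biased toward a parent when the father lacks RNA polymerase IV.

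The paternal nrpd1 libraries came from experiment 2, in which seeds were dissected by hand 6 to 7 days after pollination, near the torpedo stage of the embryo. They were set beside 3 wild-type libraries (Ler mother, Col father) of the same experiment. For single genes, values were also read in experiment 1, taken 6 days after pollination with another kit. It holds 3 libraries in which both parents carried nrpd1a-4 and 2 wild-type libraries (Ler mother, Col father). None of these plants received a treatment, each library pooled seeds of crosses between several plants, and nrpd1a-4 was the mutant allele in every mutant cross. All mothers were labelled Ler and all fathers Col, so a parental bias and a difference between the strains cannot be told apart in any value below.

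Endosperm feeds the embryo and arises when a sperm cell fertilises the central cell of the ovule, which brings in the maternal genome in a double dose. RNA polymerase IV transcribes transposons and other repeats, and its transcripts are copied and cut into small RNAs that direct DNA methylation by a partner polymerase, RNA polymerase V. In imprinted genes, methylation or Polycomb marks that differ between the parents leave the allele of one parent more active than that of the other. With 2 maternal genomes for 1 paternal genome, a gene expressed alike from every copy has a maternal share of 66.7%, where the share is the Ler percentage of its Ler and Col counts.

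Total counts were 35629462, 34308098 and 32676580 in the paternal nrpd1 libraries, and 28344044, 34911355 and 24845721 in wild type of experiment 2. Of the paternal nrpd1 counts, 7.10%, 7.40% and 7.13% carried an allele. The median maternal share of the tested genes was 68.6%, 67.0% and 67.1% in paternal nrpd1, against 66.7%, 66.7% and 66.1% for the genes tested in wild type. Each gene was tested against the median of its own library, so a shift of a whole library is not counted as bias. The threshold on counts did not cut at a step in the shares. The 507 genes whose lowest library held 20 to 24 allele counts had a median share of 67.2%, and the 714 left out with 15 to 19 counts had 68.5%. NRPD1, the gene of the largest polymerase IV subunit, was too low to be tested. It had 20 Ler and 9 Col, 1 and 1, and 10 and 11 counts in paternal nrpd1, against 10 and 10, 33 and 36, and 27 and 15 in wild type. Mutant and wild-type transcripts of the gene are not separated by these counts.

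Endosperm without a paternal RNA polymerase IV still held many genes with a parental bias. Maternal bias was called for 506 genes (9.06% of those tested) and paternal bias for 632 (11.3%), while 4450 genes were not called. A call is an adjusted p under 0.05 in edgeR's quasi-likelihood test of Ler over Col counts, and 1688 genes had an unadjusted p under 0.05. Which side had more calls depended on the balance that genes were set against. Tested against 2 maternal to 1 paternal in place of the library median, maternal calls were 567 and paternal calls 555. Maternal calls had a median share of 86.3%, with quartiles of 78.8% and 96.6%. Paternal calls had a median share of 51.3%, with quartiles of 40.4% and 56.9%. All 506 maternal calls and 630 of the 632 paternal calls lay on the same side of the library median in all 3 libraries. A bias of at least 1 on the log2 odds scale, which is a doubling of the ratio of Ler to Col counts against the library's median, was reached by 349 maternal calls (6.25%) and 312 paternal calls (5.58%). At the extremes, 48 genes had no Col count in any of the 3 libraries and 11 had no Ler count.

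**Figure D1:**
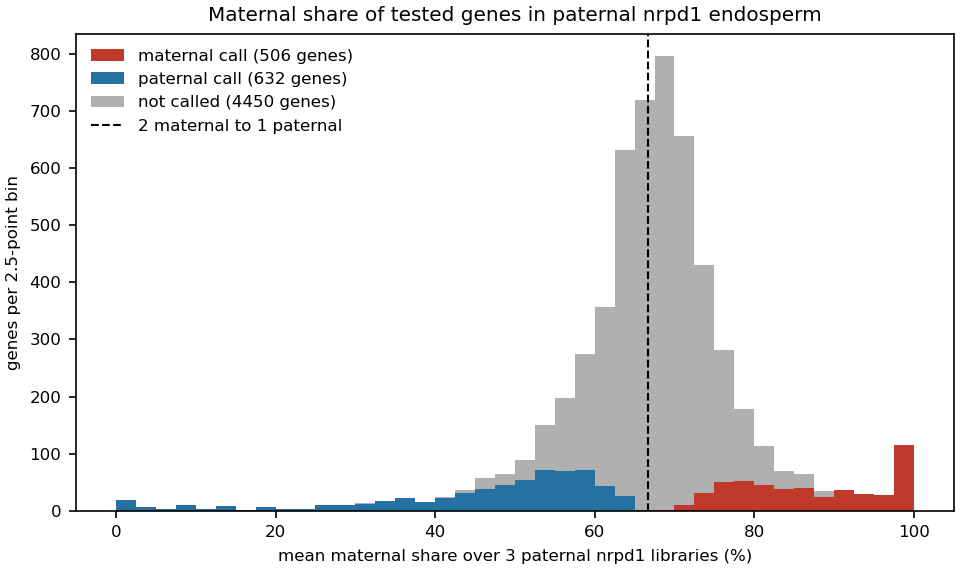
Number of tested genes (vertical axis) by mean maternal share over the 3 paternal nrpd1 libraries (horizontal axis, percent, bins of 2.5 points), stacked by maternal call, paternal call or no call. The 4450 genes not called form the peak near the dashed line at 66.7%, the 632 paternal calls spread below it, and the 506 maternal calls end in a bin of genes close to 100%.

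The share of genes called rose with depth. Maternal and paternal calls made up 5.70% and 5.94% of the 2474 genes with a mean of 20 to 100 allele counts per library. They made up 10.7% and 12.8% of the 2661 genes with 100 to 1000. With 1000 or more counts they were 79 and 145 (17.44% and 32.0%) of 453 genes. Calls past 1 on the log2 odds scale kept close to 11.1%, 12.7% and 10.8% of the genes in these bins. The deepest genes added small biases, with median shares of 75.4% for maternal and 59.0% for paternal calls. A gene not called at low depth is therefore not shown to be balanced.

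Genes read only from the mother's allele included genes of seed coat pigment. Among calls with at least 50 allele counts in every library, AT1G56100 (chromosome 1, 20980369 to 20984115), a pectin methylesterase inhibitor family gene, had the most counts of those at 100%. All of its 117, 2408 and 1772 counts were from Ler, which allows a paternal share of up to 0.0698% at 3 counts. BAN (AT1G61720), the anthocyanidin reductase that makes the building blocks of condensed tannins, had 183, 679 and 1949 Ler counts and 0 Col counts. DFR (AT5G42800), a reductase that acts earlier in the same pathway, had 181, 456 and 1504 Ler counts and 0 Col counts. TT10 (AT5G48100), a laccase that oxidises tannin precursors and browns the seed coat, had 218, 207 and 676 Ler counts and 0 Col counts. These counts allow paternal shares of up to 0.107% for BAN, 0.140% for DFR and 0.272% for TT10.

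The other genes with the highest shares also had 0 Col counts in all 3 libraries. They were AT1G12010 (560 Ler counts in all), a 2-oxoglutarate-dependent oxygenase gene, and AT2G39400 (553), an alpha/beta-hydrolase gene. AT4G12290 (390) encodes a copper amine oxidase, and ADT4 (389) the arogenate dehydratase that makes phenylalanine. AT3G06955 (350) is annotated as a non-coding RNA, and TBL38 (328) belongs to a family that acetylates cell wall polysaccharides. In wild type of experiment 2 the same 10 genes had mean shares between 98.6% (ADT4) and 100%. In wild type of experiment 1 AT2G39400 measured 66.9% and 92.0%, on 248 and 400 allele counts. AT2G39400, AT1G56100 and BAN are on a deposited list of 5081 genes that accompanies experiment 1. Listed genes were left out where calls are compared with that experiment below. None of the 10 was called in the difference from wild type, and for AT1G56100, BAN, AT4G12290, AT3G06955 and TBL38 wild type of experiment 2 also had 0 Col counts.

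Seed coat is tissue of the mother alone, and hand-dissected endosperm can carry some of it. All 6 tested members of the tannin and flavonoid list (of 18 members) were called maternally biased, with shares of 99.7% to 100%, against 9.06% of all tested genes. Besides BAN, DFR and TT10 these were TT4, the chalcone synthase that opens the flavonoid pathway, LDOX, which makes anthocyanidins, and GSTF12, which carries flavonoids to the vacuole. The summed level of the 18 members was 241, 569 and 1578 CPM (counts scaled to 1e+06 total counts) in paternal nrpd1 and 480, 527 and 413 CPM in wild type. No member was at 0 in all 3 paternal nrpd1 libraries, and replicate 3 held the most by far. Of the mucilage list, 3 of 5 tested genes (of 14 members) were called maternal and 0 paternal. BXL1, a xylosidase that trims mucilage pectin, and GL2, a homeobox gene of the seed coat epidermis, had 0 Col counts. AT2G47670 (PMEI6, a pectin methylesterase inhibitor of mucilage) measured 79.8%, 98.7% and 99.4%, with replicate 1 well below the others. LUH, a transcriptional co-repressor, measured 58.9%, 81.4% and 62.5% and was not called. Of the suberin and cutin list, 0 of 20 members reached the threshold, with 7.38, 12.9 and 26.7 CPM in sum in paternal nrpd1 and 13.6, 22.2 and 16.5 CPM in wild type. The part of seed coat tissue in the other maternal calls was not tested. Less RNA per cell and fewer cells of a type cannot be told apart in such bulk libraries.

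Genes read only from the father's allele were fewer and held several of unknown function. SADHU1-1 (AT2G10410, chromosome 2, 4005995 to 4007044), a member of the Sadhu family of retroposons, had 1673, 855 and 816 Col counts and 0 Ler counts in paternal nrpd1. Wild type likewise had 0 Ler counts among 1788. A maternal share of up to 0.0897% is allowed in paternal nrpd1. AT3G43690 and AT3G43740, an unknown protein and a leucine-rich repeat protein that are close together on chromosome 3, had 0 Ler counts among 335 and 220. HSD2, a hydroxysteroid dehydrogenase gene, had 3 Ler counts among 1625, and AT1G32280, a lipid-transfer family gene, had 1 among 669.

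PSRP6, a protein of the plastid ribosome, had shares of 0.433%, 1.20% and 0.909%, and AT2G04390, a ribosomal S17 family gene, 0%, 0.455% and 2.13%. AT2G14878 measured 0.935%, 2.46% and 2.13%, AT1G47317, a defensin-like gene, 0.833%, 4.23% and 1.88%, and AT5G46230, of unknown function, 2.29%, 6.49% and 4.79%. In wild type the highest mean share among these 10 genes was 5.25% (AT2G14878), and none of the 10 was called in the difference.

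**Figure D2:**
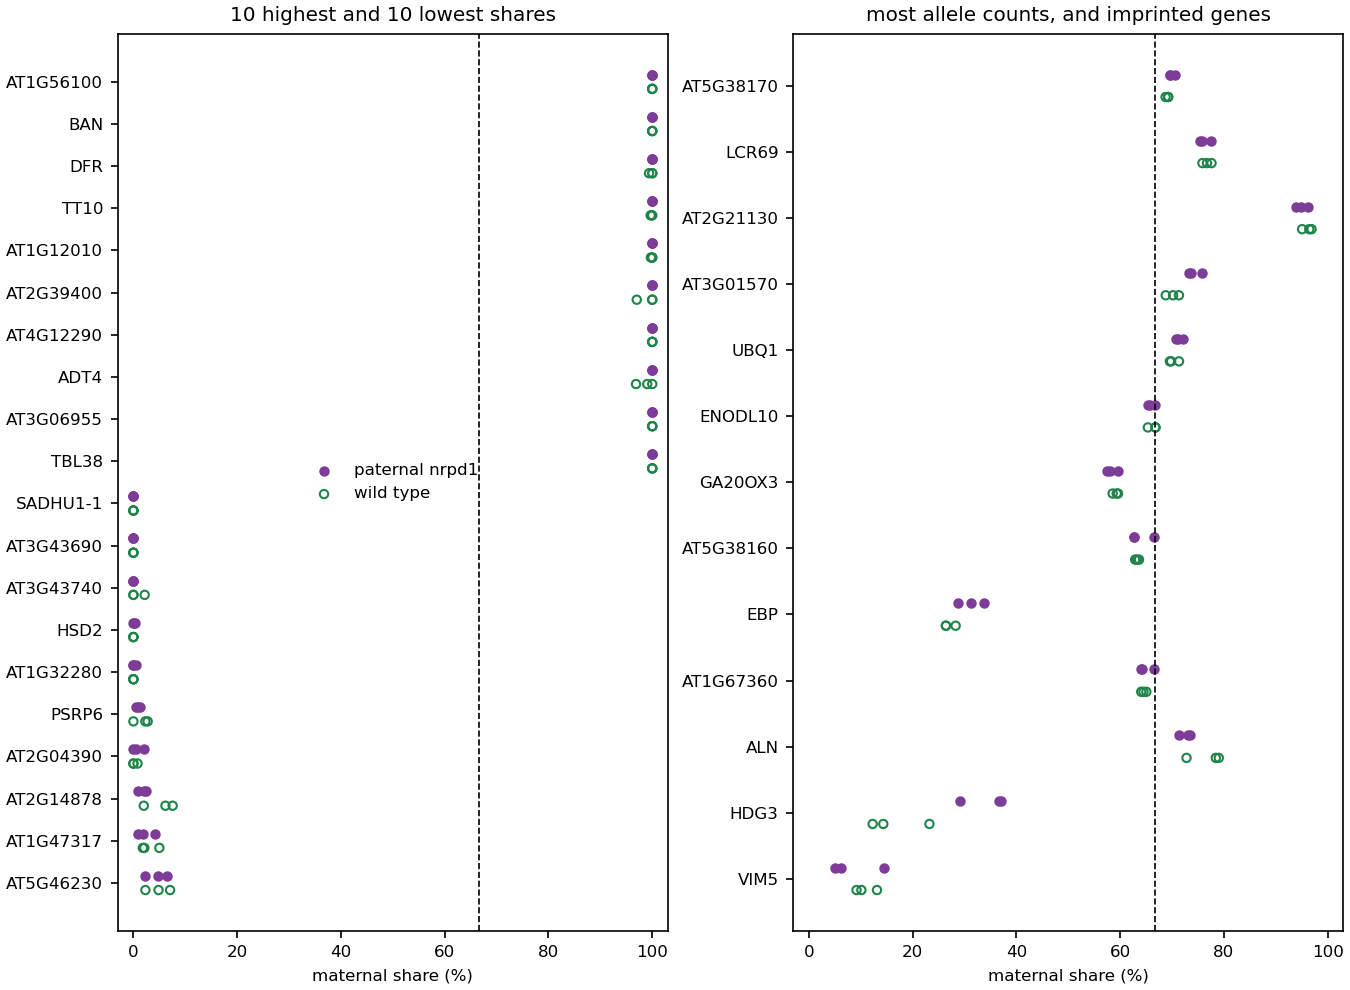
Maternal share (percent, horizontal axis) of single genes in each of 3 paternal nrpd1 libraries (filled points, upper of each pair) and 3 wild-type libraries of experiment 2 (open circles, lower). The 10 genes with the highest and the 10 with the lowest shares (left) sit at 100% and at 6.49% or below in every paternal nrpd1 library. On the right, HDG3 is the imprinted gene whose groups do not overlap, though its difference was not called, and the dashed line marks 66.7%.

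The most abundant biased genes differed less from the median than the genes above, though AT2G21130 and EBP were past 1 on the log2 odds scale. Small errors in this set come with large counts. AT5G38170, a lipid-transfer family gene, had shares of 69.7%, 70.5% and 69.6% over 263798 allele counts (log2 odds 0.16, SE 0.03, adjusted p = 0.00188). Its neighbour AT5G38160 of the same family, 1429 bases away, was called paternal, with 66.5%, 62.6% and 62.6% (log2 odds -0.23, SE 0.04, adjusted p = 0.0022). Reads of such related genes could have been split between them when they were counted. AT2G21130, a cyclophilin that helps proteins fold, was almost wholly maternal at 96.3%, 94.8% and 94.0%. LCR69, of a family of small cysteine-rich proteins, measured 77.4%, 75.4% and 75.7%.

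AT3G01570, an oleosin gene of oil bodies, measured 73.6%, 75.8% and 73.3%, above 71.3%, 68.8% and 70.2% in wild type, though the difference was not called (adjusted p = 0.882). UBQ1, a ubiquitin fused to a ribosomal protein, had a mean share of 71.3% ± 0.698 (SD, n = 3). In wild type of experiment 1, AT5G38170 (64.8% and 65.6%) and AT3G01570 (65.9% and 64.8%) lay below the library medians of 66.3% and 66.7%. LCR69, AT2G21130 and UBQ1 lay above these medians in both libraries. On the paternal side EBP, an ethylene response factor, measured 31.3%, 28.7% and 33.7% (log2 odds -2.20, SE 0.06, adjusted p = 2.89e-09). GA20OX3, an oxidase late in gibberellin synthesis, measured 59.6%, 58.0% and 57.4% (log2 odds -0.57). Its wild-type shares were 58.5%, 59.3% and 59.6% in experiment 2 but 27.7% and 20.9% in experiment 1, on 14233 and 16936 allele counts. On the paternal side the calls of AT1G67360, a rubber elongation factor family gene (-0.17), and ENODL10, an early nodulin-like gene (-0.10, adjusted p = 0.039), were the smallest. The small biases depended on the test. Against 2 maternal to 1 paternal the calls of AT5G38160 (adjusted p = 0.071), AT1G67360 (0.21) and ENODL10 (0.596) were lost. DESeq2 lost those of AT5G38170 (adjusted p = 0.0905), AT1G67360 (0.0864) and ENODL10 (0.414), and of these 10 abundant genes limma called only AT2G21130 and EBP. That of ENODL10 was also lost without any one of the 3 libraries.

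Known imprinted genes were mostly too low in allele counts to be tested, with 1 of 10 maternally expressed and 2 of 12 paternally expressed genes over the threshold. The members that were tested kept to the father's side or near the median. VIM5, a RING-finger protein of the family that maintains DNA methylation, had 110 Ler and 655 Col, 14 and 266, and 37 and 565 counts. Its shares of 14.4%, 5.0% and 6.15% were far below the median (log2 odds -4.43, SE 0.25, adjusted p = 8.97e-07), against 10.11%, 9.18% and 13.1% in wild type.

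HDG3, a homeobox gene known for expression from the paternal copy, had 32 Ler and 78 Col, 27 and 46, and 69 and 119 counts. It was still called paternal in paternal nrpd1, with 29.1%, 37.0% and 36.7% (log2 odds -1.996, SE 0.24, adjusted p = 1.71e-04). Every one of these shares lay above the wild-type values of 12.3%, 14.3% and 23.2%, and the difference was not called (adjusted p = 0.712). How many other genes separate in this way was not counted. In experiment 1 HDG3 overlapped. It had 7.28%, 34.6% and 9.09% on 151, 26 and 231 allele counts where both parents carried nrpd1a-4. Wild type there had 5.85% and 8.47%. ALN, the allantoinase that recycles nitrogen from purines, measured 71.3%, 73.0% and 73.4% in paternal nrpd1 and was not called (log2 odds 0.34, SE 0.13, adjusted p = 0.109). In wild type it had 79.0%, 78.4% and 72.8%, and the difference was not called either (adjusted p = 0.953).

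Below the threshold, the few counts of the other imprinted genes went both with and against their lists. SDC, an F-box gene that small RNAs keep silent in leaves, had 5 Ler and 5 Col, 55 and 0, and 75 and 2 counts in paternal nrpd1. In wild type it had 26 and 0, 50 and 0, and 49 and 0, so the low share came from paternal nrpd1 replicate 1. HDG9, a homeobox gene expressed from the mother's allele, had 45 Ler and 2 Col, 13 and 0, and 53 and 1. YUC10, an enzyme of auxin synthesis expressed from the father's allele, had 0 Ler and 21 Col, 1 and 9, and 0 and 28. SUVH7, a histone methyltransferase gene, had 0 Ler counts in all 3 libraries and 0, 4 and 14 Col counts. ADM (AT4G11940), a J-domain protein gene, had 0 Ler and 3 Col, 0 and 3, and 0 and 10. FWA, MEA, FIS2, MPC and AGL36 had at most 6 Ler and 0 Col counts per library, and PHE1, PKR2 and TAR1 had none of either. SDG21 (SUVH8), listed as paternally expressed, went the other way with 32 Ler and 2 Col, 3 and 2, and 14 and 2. So did MEE27 (JMJ15), a histone demethylase gene, with 5, 4 and 6 Ler counts and 0 Col counts. AT2G33620 (AHL10), another gene of that list, had 6 Ler and 1 Col, 1 and 0, and 12 and 6. Of the maternally expressed list, HDG8 had 4 Ler and 0 Col, 6 and 0, and 0 and 3, and FH5 had 6 and 7, 5 and 1, and 11 and 3.

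Genes of the small RNA and methylation pathways were few above the threshold, and 3 single genes were called, all paternal, where 11.3% of all tested genes were paternal and 9.06% maternal calls. So few calls give no direction for a pathway. Of RNA polymerase IV and its partners, 3 of 10 were tested and 1 was called. NRPD4, a subunit that polymerases IV and V share, measured 48.3%, 61.8% and 54.8% (log2 odds -0.77, SE 0.20, adjusted p = 0.0173). NRPD7 had the highest share of the list (51.4%, 71.1% and 61.8%). Of the polymerase V and Argonaute genes, 6 of 17 were tested, 0 were called maternal and 1 paternal. That gene was SUVH9, which binds methylated DNA and helps recruit polymerase V, with 36.0%, 2.22% and 17.2% on 50, 45 and 87 counts. AGO6, an Argonaute that loads these small RNAs, had the highest share of its list (75%, 77.3% and 86.7%) and was not called.

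Of genes that maintain or remove DNA methylation, 2 of 15 were tested. VIM1, which recruits the maintenance methyltransferase, was called paternal at 39.2%, 25% and 34.9% (log2 odds -2.05, SE 0.22, adjusted p = 8.7e-05). VIM1 and VIM5 are related neighbours on chromosome 1, and reads could have been split between them. CMT3, a methyltransferase of non-CG sites, measured 78.6%, 37.1% and 74.8%, with replicate 2 apart, and was not called. Of Polycomb repressive complex 2, 2 of 10 were tested and 0 called, with VRN2 the higher (74.1% ± 10.7 SD, n = 3) and VEL1 the lower (64.9%). None of the 15 type I MADS-box genes had enough allele counts.

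Endosperm genes themselves lay on both sides of the median. Of 12 list members 5 were tested, 2 were called maternal and 1 paternal, against 9.06% and 11.3% of all tested genes. Their median share was 70.3%, against 67.6% over all tested genes. Highest was ICE1, the partner of the endosperm breakdown factor ZOU, with 76.9%, 83.0% and 74.5% (log2 odds 0.73, adjusted p = 0.0172). Lowest was ZOU itself (RGE1 in the annotation), at 53.4%, 56.8% and 56.5% (log2 odds -0.74, adjusted p = 0.00843). EPR1, an extensin-like cell wall gene of the endosperm that was chosen after its values were seen, was called maternal at 73.8%, 73.9% and 71.7%. It measured 67.5%, 65.9% and 68.2% in wild type, where it was not called, and the difference did not pass (adjusted p = 0.235). The endosperm list summed to 1212 to 2685 CPM in paternal nrpd1 and 1874 to 8802 CPM in wild type, with WRKY10 (MINI3), SHB1 and EXPA7 at 0 in paternal nrpd1.

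Embryo genes were represented by WOX9 (HB-3 in the annotation), a homeobox gene of embryo patterning, at 62.4%, 51.9% and 74.6% and not called. The 19 embryo members summed to 88.2 to 191 CPM in paternal nrpd1 and 93.0 to 245 CPM in wild type, with 7 of them at 0 in every paternal nrpd1 library. Heat shock genes (4 of 13 tested, 0 called) lay near the median, with HSP70 lowest at 67.5%, 66.9% and 67.3%, and HSP90.1 the highest of the 4 at 72.5% on average. The oleosins OLEO1 (65.9%) and OLEO2 (69.0%) were the 2 storage and oil body genes tested of 14, and 0 were called. All 285 features of the chloroplast and mitochondrial genomes had 0 allele counts, so the maternal inheritance of organelles could not be seen.

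**Figure D3:**
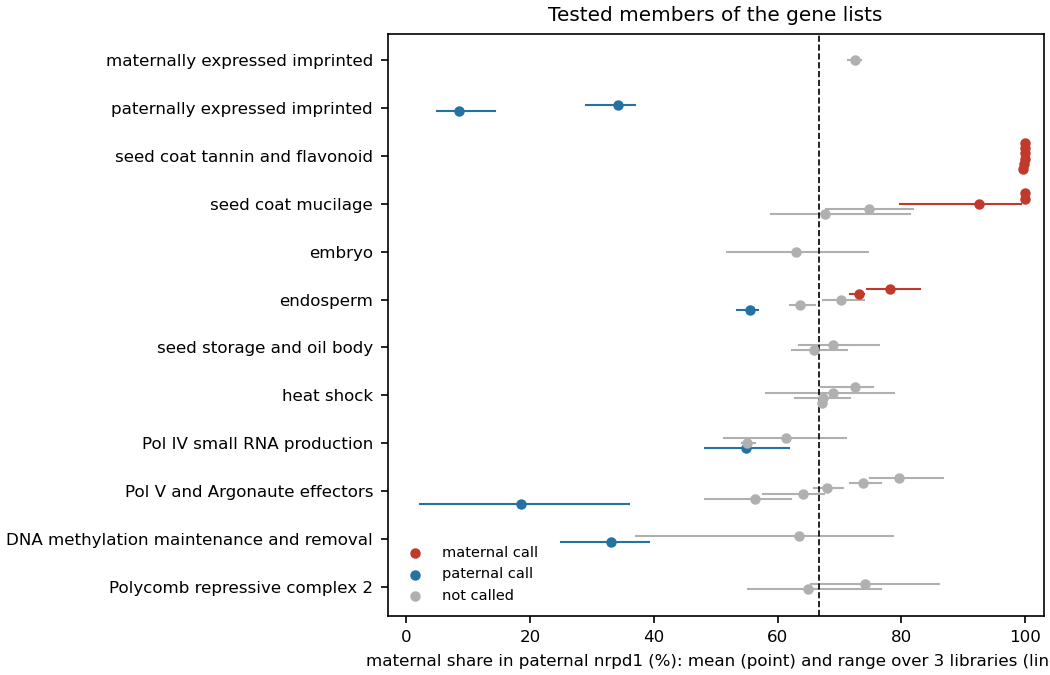
Maternal share (percent, horizontal axis) in paternal nrpd1 of every tested member of each gene list (rows), as the mean (point) and the range over 3 libraries (line), coloured by call. All 6 tannin genes lie at 99.7% or above, the paternal calls lie at 55.6% or below, and the means of the 4 heat shock genes lie between 67.2% and 72.5% without a call. The dashed line marks 66.7%.

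Calls were spread over the chromosomes, while their rates differed between gene classes. By chromosome, maternal calls ran from 8.37% of the tested genes on chromosome 1 to 9.90% on chromosome 5, and paternal calls from 9.77% on chromosome 3 to 12.7% on chromosome 1. Of the maternal calls 13.1% had a maternal call as the next tested gene along the chromosome, and 12.5% a paternal one. Of the paternal calls 13.3% had a paternal call next and 12.7% a maternal one. Each of these rates was above the share over all tested genes, which was 9.06% for maternal and 11.3% for paternal calls. The cause was not tested. Protein-coding genes were called maternal in 8.83% and paternal in 11.1% of 5502 cases. Of the 82 other annotated genes, 20 were called in each direction, or 24.4%. Of 22 pseudogenes, 7 were maternal and 7 paternal calls, and of 22 non-coding RNAs 9 were paternal calls. Of 24 long non-coding RNAs, 7 were maternal calls.

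Most of these biases were also present with a wild-type father. In wild type of experiment 2, maternal bias was called for 632 genes (11.3% of 5581) and paternal bias for 812 (14.5%). With the limit of 1 on the log2 odds scale the wild-type calls were 344 (6.16%) and 302 (5.41%). Among 5018 genes tested in both genotypes, 388 maternal calls were shared, which is 85.5% of the 454 in paternal nrpd1 and 65.7% of the 591 in wild type. Paternal calls shared were 505, or 85.2% of the 593 in paternal nrpd1 and 65.3% of the 773 in wild type. Of the stronger maternal calls 239 were shared, 80.5% of 297 in paternal nrpd1 and 77.6% of 308 in wild type. Of the stronger paternal calls 207 were shared, 75.8% of 273 in each genotype. Of the 66 maternal calls not shared, 59 had the same sign in wild type, and 0 were called in the difference. Of the 88 paternal calls not shared, 79 had the same sign and 1 was called in the difference.

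Most called genes also leaned the same way in wild type of experiment 1, where another kit was used. There 4297 of the tested genes had at least 20 allele counts in both libraries and were not on a deposited list of 5081 genes that accompanies experiment 1. Of 374 maternal calls among them, 289 (77.3%) lay above the library median in both libraries, against 40.1% of all 4297 genes. Of 483 paternal calls, 440 (91.1%) lay below it in both, against 40.6% of all genes. Of the stronger calls, 206 of 248 maternal ones (83.1%) and 216 of 231 paternal ones (93.5%) lay on their own side.

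**Figure D4:**
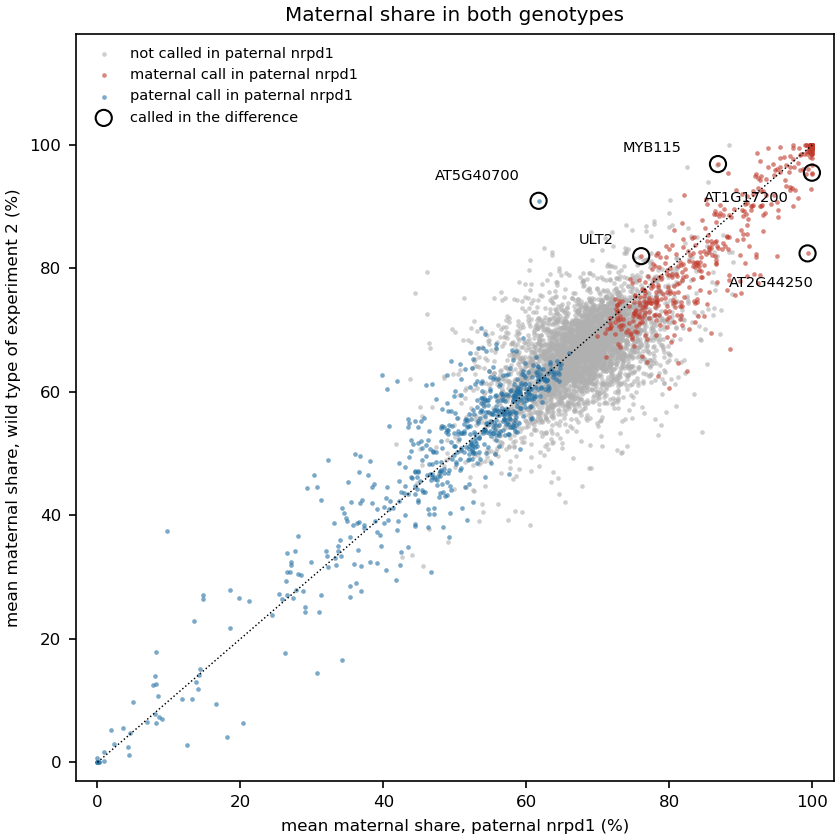
Mean maternal share (percent) of 5018 genes in paternal nrpd1 (horizontal axis) and in wild type of experiment 2 (vertical axis), coloured by the call in paternal nrpd1, with the dotted line at equal shares. The 5 circled genes were called in the difference, and of these AT5G40700 stands farthest from the line, at 61.7% in paternal nrpd1 and 90.9% in wild type.

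The maternal share differed between paternal nrpd1 and wild type for 5 genes (0.0996% of 5018). It was higher in paternal nrpd1 for 2 genes (0.0399%) and lower for 3 (0.0598%), and 263 genes had an unadjusted p under 0.05. DESeq2 called the same 2 and 3 genes. The 3 genes with a lower maternal share were AT5G40700, MYB115 and ULT2, and their promoters are shown because these genes moved the same way. Each runs from 250 bases before to 50 after the RefSeq gene start in TAIR10.1, read 5′ to 3′ on the gene's strand, with CG pairs, one of the sequence contexts of DNA methylation, in capitals.
AT5G40700, chr5:16293600-16293899, minus strand: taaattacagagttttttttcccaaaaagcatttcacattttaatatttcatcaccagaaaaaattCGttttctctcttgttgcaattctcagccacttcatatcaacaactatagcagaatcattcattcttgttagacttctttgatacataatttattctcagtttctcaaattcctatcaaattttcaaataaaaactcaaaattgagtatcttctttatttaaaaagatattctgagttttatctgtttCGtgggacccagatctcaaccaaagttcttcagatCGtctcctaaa
MYB115, chr5:16144542-16144841, plus strand: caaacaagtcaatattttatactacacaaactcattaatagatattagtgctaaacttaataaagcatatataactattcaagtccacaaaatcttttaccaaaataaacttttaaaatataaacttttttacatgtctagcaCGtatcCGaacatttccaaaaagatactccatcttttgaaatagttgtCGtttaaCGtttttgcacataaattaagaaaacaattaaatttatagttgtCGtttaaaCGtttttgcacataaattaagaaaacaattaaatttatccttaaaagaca
ULT2, chr2:8967194-8967493, minus strand: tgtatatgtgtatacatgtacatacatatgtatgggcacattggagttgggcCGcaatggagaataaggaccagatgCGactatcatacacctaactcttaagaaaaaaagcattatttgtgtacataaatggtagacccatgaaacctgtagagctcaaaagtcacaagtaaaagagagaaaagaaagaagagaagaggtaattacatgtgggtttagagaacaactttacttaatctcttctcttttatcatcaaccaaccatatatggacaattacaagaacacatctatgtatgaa

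These windows hold 3 CG pairs in AT5G40700, 6 in MYB115 and 2 in ULT2. The median over the promoters of 27431 protein-coding genes was 6, and 98% of these hold at least 1. Those of AT1G17200 and AT2G44250, the genes with a higher maternal share, hold 5 and 1.

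AT5G40700 (chromosome 5, 16291755 to 16293649, minus strand), annotated as similar to the chromatin regulator ATRX, had 956 Ler and 503 Col, 300 and 219, and 524 and 324 counts in paternal nrpd1. Wild type had 289 Ler and 34 Col, 631 and 65, and 368 and 29. The shares were 65.5%, 57.8% and 61.8% in paternal nrpd1, against 89.5%, 90.7% and 92.7% in wild type, with no overlap. The log2 difference of the odds was -2.69 (SE 0.19, adjusted p = 1.18e-05). Col counts reached 14.1, 6.38 and 9.92 CPM in paternal nrpd1 and 1.20, 1.86 and 1.17 CPM in wild type. Ler counts overlapped, with 26.8, 8.74 and 16.0 CPM in paternal nrpd1 and 10.2, 18.1 and 14.8 CPM in wild type. This difference passed under each of 12 other settings, with adjusted p between 1.76e-40 and 7.44e-04. It was the 1 gene called in opposite directions, maternal in wild type (log2 odds 2.34, adjusted p = 1.84e-09) and paternal in paternal nrpd1. The second call was marginal (log2 odds -0.36, adjusted p = 0.0499) and was lost without paternal nrpd1 replicate 2 (adjusted p = 0.259) or replicate 3 (adjusted p = 0.118). Over the 11 other settings its adjusted p ran from 0.0124 to 0.259, and 6 of them lost the call. Among these were the balance of 2 maternal to 1 paternal (adjusted p = 0.124), TMM factors (0.0686) and DESeq2 (0.126).

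MYB115 (AT5G40360, chromosome 5, 16144792 to 16146671), a MYB factor that activates fatty acid desaturation genes in endosperm, was maternal in both genotypes but less so in paternal nrpd1. It had 179 Ler and 32 Col, 95 and 12, and 138 and 21 counts in paternal nrpd1, against 155 and 8, 411 and 7, and 142 and 4 in wild type. The shares were 84.8%, 88.8% and 86.8% in paternal nrpd1 and 95.1%, 98.3% and 97.3% in wild type (log2 difference -2.53, SE 0.42, adjusted p = 0.0399). Col counts were higher in paternal nrpd1 (0.630 ± 0.274 CPM) than in wild type (0.215 ± 0.0618 CPM), and Ler counts were lower (4.01 ± 1.14 and 7.65 ± 3.57 CPM, SD, n = 3 each). Leaving out paternal nrpd1 replicate 1, 2 or 3 or wild-type replicate 2 or 3 lost the call, and its adjusted p over 12 other settings ran from 1.16e-05 to 1. AT5G40700 lies 145083 bases beyond the end of MYB115. None of the 9 tested genes between them was called in the difference (smallest adjusted p = 0.929).

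ULT2 (AT2G20825), a relative of the floral regulator ULTRAPETALA1, changed least but with the most counts. Its shares were 77.9%, 74.97% and 75.3% over 30941 allele counts in paternal nrpd1, against 83.1%, 80.2% and 82.6% over 14675 in wild type (log2 difference -0.58, SE 0.08, adjusted p = 0.0132). Col counts were 101, 44.6 and 64.3 CPM in paternal nrpd1 and 24.6, 33.7 and 32.2 CPM in wild type. Ler counts were also higher on average in paternal nrpd1 (357, 134 and 196 CPM) than in wild type (121, 136 and 153 CPM), though they overlapped. ULT2 overlaps AT2G20820 on the other strand, and whether strand was used in counting is not given in the sources used here. Without paternal nrpd1 replicate 2 or 3, or wild-type replicate 1 or 3, the call was lost, and over 12 other settings its adjusted p ran from 2.14e-10 to 0.153.

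In experiment 1, where both parents carried the mutation, MYB115 and AT5G40700 also had lower shares than wild type. AT5G40700 measured 59.4%, 68.7% and 63.2% in homozygous nrpd1, against 82.1% and 85.5% in wild type. MYB115 measured 80.5%, 87.3% and 82.8%, against 96.4% and 99.2%. ULT2 overlapped, with 70.7%, 74.6% and 70.9% in homozygous nrpd1 and 70.5% and 74.4% in wild type. Of the genes with a higher share in paternal nrpd1, AT1G17200 overlapped in experiment 1, with 97.2%, 96.0% and 99.5% in homozygous nrpd1 and 97.7% and 97.3% in wild type. AT2G44250 had Ler percentages of 43.9%, 55.6% and 0% on 66, 9 and 68 allele counts in homozygous nrpd1, against 79.6% and 56.7% in wild type. It is on the deposited list of 5081 genes, while the other 4 are not. For the reason below, its values in homozygous nrpd1 do not show whether its maternal share was higher. BAN, also on that list, measured 0.0638%, 0% and 0.0607% in homozygous nrpd1, against 97.0% and 99.5% in wild type of experiment 1. The listed genes VIM5, NRPD1 and AT1G56100 had 0% in every homozygous nrpd1 library. AT2G39400, also listed, had 64.7%, 63.5% and 0.433%. The Ler percentage of listed genes is therefore not read as a maternal share in homozygous nrpd1, and the cause was not tested. The shares of experiment 1 were not tested here. AT2G01422 (chromosome 2, 183940 to 184734), with no described function, was chosen after its values were seen and had too few allele counts in wild type for the test of the difference. It had 19 Ler and 23 Col, 13 and 22, and 13 and 50 counts in paternal nrpd1, where it was called paternal (log2 odds -2.05, adjusted p = 0.00562). Wild type had 12, 15 and 6 Ler and 0 Col counts. The shares in experiment 1 were 21.7%, 30.0% and 64.5% in homozygous nrpd1 and 100% and 100% in wild type.

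The 2 genes with a higher maternal share in paternal nrpd1 rest on few Col counts. AT1G17200 (chromosome 1, 5878390 to 5880073), an uncharacterized membrane protein family gene, had 0, 1 and 1 Col counts among 272, 1499 and 1086 in paternal nrpd1. Wild type had 6, 5 and 10 among 296, 109 and 145. Col counts made up 0.0700% in paternal nrpd1 and 3.82% in wild type, a ratio of 0.0183 (95% interval for counting error 0.00208 to 0.0750) (log2 difference of the fitted odds 5.66, SE 0.73, adjusted p = 0.00726). Its Ler counts were 7.63, 43.7 and 33.2 CPM in paternal nrpd1 and 10.2, 2.98 and 5.43 CPM in wild type. It overlaps AT1G17210 on the other strand. AT2G44250, of the DUF239 family, had 0, 0 and 5 Col counts among 41, 99 and 251 in paternal nrpd1, against 28, 21 and 37 among 180, 92 and 258 in wild type. Its shares were 100%, 100% and 98.01% in paternal nrpd1, against 84.4%, 77.2% and 85.7% in wild type (log2 difference 3.89, SE 0.59, adjusted p = 0.0212).

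Leaving out paternal nrpd1 replicate 2 or wild-type replicate 3 lost both calls. AT1G17200 then had adjusted p of 0.0678 and 0.0756, and ran from 9.6e-12 to 0.0756 over 12 other settings. AT2G44250 was also lost without paternal nrpd1 replicate 3 or wild-type replicate 1 or 2, and its adjusted p ran from 3.59e-08 to 0.16 over 11 other settings. Over all tested genes, leaving out paternal nrpd1 replicate 1 gave 4 higher and 3 lower calls, replicate 2 gave 0 and 1, and replicate 3 gave 2 and 1. Leaving out wild-type replicate 1 gave 1 higher and 2 lower, replicate 2 gave 1 and 2, and replicate 3 gave 0 and 1. AT5G40700 was among the lower calls each time.

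**Figure D5:**
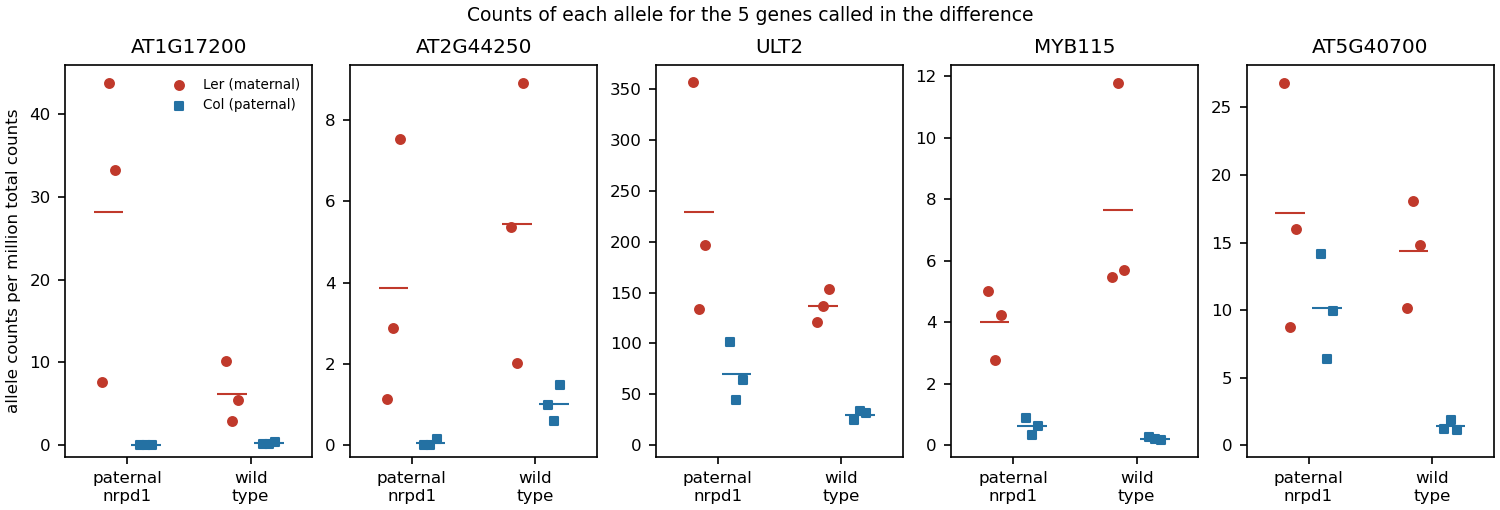
Counts scaled to total counts (CPM) of the Ler allele (maternal, circles) and the Col allele (paternal, squares) for the 5 genes called in the difference, in 3 paternal nrpd1 libraries (left) and 3 wild-type libraries (right). Lines are group means and each panel has its own scale. In AT5G40700 the Col counts stand at 6.38 CPM or more in every paternal nrpd1 library and at 1.86 CPM or less in every wild-type library, while Ler counts overlap.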

How the data were processed

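Per the labels, endosperm mRNA libraries of experiment 2 were made with a SMARTer V4 kit, 12 cycles of amplification and single reads of 40 bases. The authors deposited raw counts per feature for each library: all reads, reads of the Ler allele and reads of the Col allele. Per the submitters' processing notes the build was TAIR10 and the tools included TopHat, HTSeq, cutadapt, FastQC and Trim Galore, with no version given. How reads were assigned to an allele, and whether strand was used, is not given in the sources used here. A deposited list of 5081 gene identifiers (unit other, no measurement) served only to leave genes out in experiment 1. Summary lines, 11.6% to 13.3% of each experiment 2 table, were left out.

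Allele counts were tested in edgeR 4.0.16 (R 4.3.3) with glmQLFit and glmQLFTest, 1 term per library, an allele term, and the library's median log odds over tested genes as offset. The difference between genotypes was an allele by genotype term over 6 libraries. Tests were two-sided with Benjamini-Hochberg adjustment over all tested genes and a threshold of 0.05. Every adjusted p is from edgeR unless another tool is named. DESeq2 1.42.0 and limma 3.58.1 (with 0.5 added to each count) were alternatives, as were a fixed balance of 2 maternal to 1 paternal, TMM factors, other filters on low counts, a replicate block and leaving out each library. The main edgeR fits of bias in paternal nrpd1 and of the difference were tested on simulated data, and the alternatives were not. Log2 odds of a gene with 0 counts of an allele depend on the fit, so limits from 3 counts over the 3 libraries are given. These limits and the intervals cover counting error only, since reads carried no molecular identifiers. Replicates are separate samples per the labels, and p-values measure the spread between these samples, which may be in part technical. Replicates were not duplicates of one another.

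Members and gene lists were chosen with earlier results of these data known. Named genes are the 10 highest and 10 lowest mean shares among calls with at least 50 allele counts per library, and the 5 calls per direction with the most counts. Ties in share went to the gene with more counts, a choice made after the data were seen. Imprinted genes, NRPD1 and genes called in the difference were named as well, with the extremes of each list. Of 214 list symbols 201 matched. Symbols, positions and promoters are from RefSeq, TAIR10.1, which holds 37051 of the 37336 features.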

Additional observations from a re-analysis of the deposited data

Results flagged for a closer look

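The parental balance of 5 genes differed between paternal nrpd1 and wild type of experiment 2 in the test of the difference itself. On the log2 odds scale, paternal nrpd1 minus wild type, AT5G40700 differed by -2.69, MYB115 by -2.53 and ULT2 by -0.58. AT1G17200 differed by 5.66 and AT2G44250 by 3.89. Of the 5, AT5G40700 alone passed under each of its 12 other settings. Groups of 3 libraries are too small for the check on single outlying libraries.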

How the results depend on the processing

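No result changed direction, and 28 of 43 values of named genes kept their side of the threshold under every alternative. Without a filter, maternal calls were 831 in paternal nrpd1 and 1007 in wild type, and the difference gave 16 higher and 22 lower. With limma the calls were 233 maternal and 344 paternal in paternal nrpd1, and 314 and 405 in wild type. DESeq2 gave 410 and 526 in wild type. With at least 50 counts per library, 1 gene was higher in the difference. Leaving out 1 library gave 418 to 638 maternal and 476 to 682 paternal calls in paternal nrpd1, and 522 to 685 and 638 to 832 in wild type. For the difference it gave 0 to 4 higher and 1 to 3 lower. The cause of these changes was not tested, except that more or fewer genes were tested with the other filters. Same-numbered libraries of the genotypes did not deviate together (r = -0.09, -0.03 and 0.00), and for other pairs r ran from -0.08 to 0.10. This gave no sign of pairing by number, but it does not exclude a shared batch. With a replicate block the difference gave 1 higher and 2 lower, and AT2G44250 and MYB115 had an adjusted p of 0.16. In paternal nrpd1, 7.10% to 7.40% of counts carried an allele, and 5588 of 37336 features passed the filter of 20 allele counts.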

Other observations

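FLC, a flowering repressor that was chosen after its values were seen, was read mostly from the father's allele, with maternal shares of 13.4%, 5.45% and 5.83% in paternal nrpd1 and 10.7%, 12.9% and 14.2% in wild type (difference, edgeR adjusted p = 0.953). Its wild-type shares in experiment 1 were 11.9% and 9.35%.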
